A study of Homo sapiens with 12 samples.

Results

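HOX genes were examined in A2780, an established human ovarian carcinoma cell line, either left untreated (control) or exposed for 6 hours to 3 µM of a cell cycle inhibitor that the study does not name (treated). All probes that stand for a single gene whose symbol is HOXA, HOXB, HOXC or HOXD followed by a number only were taken, which left out antisense transcripts. On the Affymetrix U133 Plus 2.0 GeneChip (AFFX), which reads each gene with sets of short oligonucleotides, 44 of 41091 single-gene probes met the rule and covered 28 HOX genes. On the Applied Biosystems Human Genome Survey Microarray (ABI), which reads most genes with a single long oligonucleotide, 28 of 21089 probes met it and covered 26. Of 39 HOX genes in RefSeq, 29 were measured on either platform and 25 on both. All 10 HOXB, all 9 HOXC and all 9 HOXD genes were among them, but only 1 of the 11 HOXA genes, HOXA2, and the other HOXA genes were not analysed here. Probes that stand for several genes, 3 on AFFX and 4 on ABI, were left out.

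Each platform carried 3 control and 3 treated arrays. All arrays of a condition came from aliquots of 1 RNA pool, so every p-value below compares these pools and measures technical spread only. AFFX values are log2 signals, with array medians of 5.37 to 5.47. ABI signals, with array medians of 1.06 to 1.19, are in a unit that is not stated and were taken as linear and turned to log2, so an ABI value below 0 is a signal below 1, and every ABI change rests on that reading. The median SD of a probe over 3 arrays was 0.0975 (control) and 0.112 (treated) on AFFX and 0.226 and 0.276 on ABI; the few arrays limit the precision of every value. Of 17 epithelial and ovarian carcinoma markers, 6 of 17 measured on AFFX and 4 of 16 on ABI were above the background level defined below. Of these, CDH2 and VIM were above it on both platforms, PAX8, a Müllerian lineage factor, on AFFX only, and CDH1, EPCAM, WT1 and MSLN on neither. The genes named were not picked by a fixed rule, and others of the list that were above background are not named. The list is mixed and was not used as a test of cell identity.

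HOX genes encode homeodomain transcription factors that set position along the body axis of the embryo. In mammals they lie in 4 clusters, A to D, and genes with the same number in different clusters are paralogues. Low numbers act towards the head and high numbers towards the tail, and a cluster is opened or kept silent by Trithorax and Polycomb chromatin proteins and responds to retinoic acid. HOX proteins bind DNA with partners of the TALE homeodomain class, such as MEIS and PBX proteins. In the Müllerian duct posterior HOXA genes pattern the oviduct, uterus and cervix, and HOX genes are often expressed out of place in ovarian tumours.

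The promoter sequences shown here are those of 3 HOX genes for which a RefSeq window was at hand. HOXD4 and HOXD13 lie in the same cluster and were called in opposite directions on ABI alone. Both calls were lost when certain single ABI arrays were left out. On AFFX the probe sets of both genes were not above background, changed upwards and were not called. HOXC4, measured on AFFX alone, passed the test there but not the fold limit. The table at hand held windows for 12 of the HOX genes, and none for HOXB2 or HOXB6. Each sequence is the 250 bases before the start on build GRCh38.p14, plus strand, with capitals on the letters TATAAA of the TATA box, on CCAAT and on the homeodomain core TAATTA, read on either strand. They lie at chr2:176151300-176151549 (HOXD4), chr2:176092471-176092720 (HOXD13) and chr12:54016638-54016887 (HOXC4).
HOXD4: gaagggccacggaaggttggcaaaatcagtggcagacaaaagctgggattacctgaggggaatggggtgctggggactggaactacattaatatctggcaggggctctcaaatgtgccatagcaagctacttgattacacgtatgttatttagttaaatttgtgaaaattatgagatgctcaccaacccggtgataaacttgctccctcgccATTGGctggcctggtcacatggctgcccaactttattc
HOXD13: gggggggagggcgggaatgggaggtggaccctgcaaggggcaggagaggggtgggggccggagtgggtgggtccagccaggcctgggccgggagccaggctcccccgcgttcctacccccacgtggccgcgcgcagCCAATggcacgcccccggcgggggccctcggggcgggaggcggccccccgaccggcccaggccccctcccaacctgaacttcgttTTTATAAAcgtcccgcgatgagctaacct
HOXC4: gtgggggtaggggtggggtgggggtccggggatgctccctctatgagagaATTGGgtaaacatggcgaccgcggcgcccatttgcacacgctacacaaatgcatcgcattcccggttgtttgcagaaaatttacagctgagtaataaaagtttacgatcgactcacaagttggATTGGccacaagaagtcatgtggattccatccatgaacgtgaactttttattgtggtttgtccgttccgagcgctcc
The HOXC5 window was the same sequence as that of HOXC4, since both entries begin at 1 shared start. Most of the 12 windows are of HOXD genes, and the shared sequence counts for both HOXC4 and HOXC5. Among the 12, CCAAT was present in 10 and in 32% of all 35116 windows of this length. TATAAA was present in 1, that of HOXD13, against 10.7% of all. TAATTA was in 2 (4.35% of all), TGATNNAT, a PBX-HOX type letter string, in 3 (6.47%) and CACGTG in 5 (6.34%). The median number of CG pairs was 18.5 in the HOX windows and 11 in all. These 5 letter strings, searched on both strands, and the 3 windows were chosen with the array values known, and a match is a description of letters only.

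On AFFX, control cells gave clear signal from the HOXB and HOXC clusters and little from HOXD, a contrast that was weaker on ABI. A probe was called above background when its control mean passed the 95th percentile of probes for 51 genes that such a line should lack (leukocyte, erythroid, hepatocyte, muscle, photoreceptor and pancreas markers), which was 6.17 on AFFX (99 probes) and 0.80 on ABI (64 probes) in log2 units. On AFFX 20 of 44 HOX probes (45.5%) were above it, beside 42.5% of all single-gene probes, and on ABI 13 of 28 (46.4%) beside 47.3%. By cluster, 12 of 19 HOXB probes, 7 of 9 HOXC probes, 1 of 15 HOXD probes and none of 1 HOXA probe passed on AFFX. On ABI the counts were 6 of 12 for HOXB, 4 of 7 for HOXC, 3 of 8 for HOXD and none of 1 for HOXA. Of the 25 genes on both platforms, 9 were above background on both (HOXB2, HOXB3, HOXB5, HOXB6, HOXB7, HOXC5, HOXC8, HOXC9 and HOXC10), 4 on AFFX alone, 4 on ABI alone and 8 on neither. Under a stricter level, the 99th percentile, only 2 ABI probes remained above it, and 16 on AFFX.

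**Figure D1:**
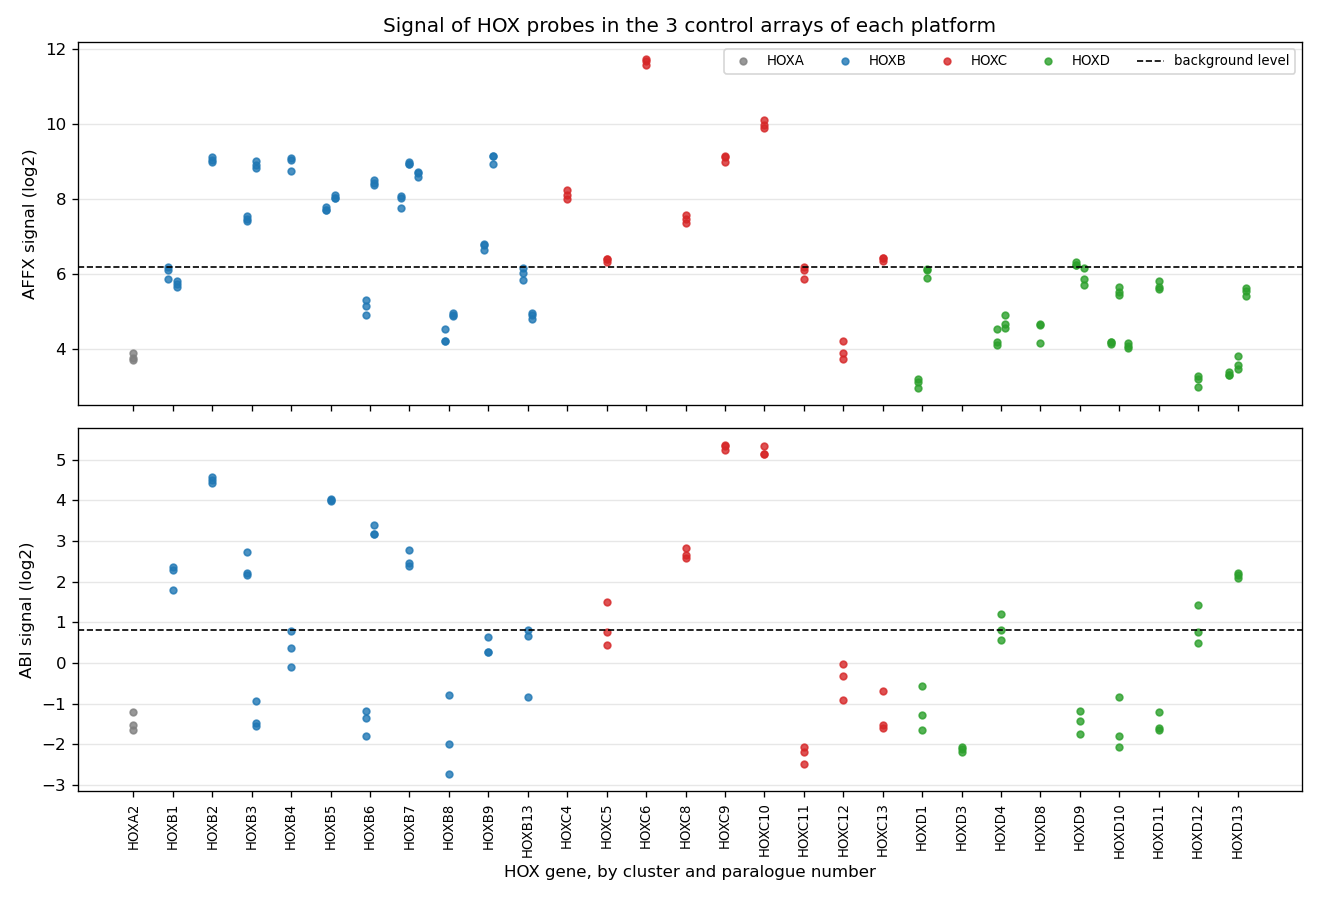
Log2 signal of every HOX probe in the 3 control arrays of AFFX (top) and ABI (bottom), with genes ordered by cluster and paralogue number, 1 point per array, and a dashed line at the background level (6.17 and 0.80). The highest points of both panels are of HOXB and HOXC genes, but on ABI only 6 of 12 HOXB and 4 of 7 HOXC probes lie above the line. Of the HOXD probes, 1 of 15 on AFFX and 3 of 8 on ABI lie above it. Probes of different genes bind with different strength, so heights are not a ranking of genes.

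Each platform's treated arrays were set against its control arrays in limma, and a call needed a Benjamini-Hochberg adjusted p under 0.05 over all probes and a change of at least 1.5-fold. On AFFX 7 HOX probes of 6 genes fell (15.9% of the 44) and none rose. Among all single-gene probes 10.4% were called lower and 1.71% higher. Without a fold limit, 14 HOX probes passed lower and 8 higher, where 17.3% and 23.4% of all did. At an unadjusted limma p under 0.05 the counts were 14 and 13. The share of all probes at that limit was not computed, so these 2 counts cannot be read as a result about HOX probes. An equal-variance t-test with the same limits also called no HOX probe higher on AFFX. On ABI 5 probes fell (17.9% of the 28, against 13.1% of all) and 1 rose (5.62% of all), which are also the counts without a fold limit (14% and 7.52% of all). Control and treated arrays did not overlap for 27 of 44 HOX probes on AFFX and 11 of 28 on ABI, beside 53.5% and 43% of all single-gene probes. HOXB2 and HOXB6 were the HOX genes called lower on both platforms, 2 of 25 beside 10.5% of the 16186 shared genes. These shares lie near those of all probes, so the family as a whole is not set apart by its number of calls. The median change was 0.02 over the HOX probes on AFFX and -0.18 on ABI, against 0.11 and 0.08 over all single-gene probes. The sign of the AFFX median depends on the scaling, at -0.03 with arrays centred on their median and -0.20 when centred on ribosomal protein probes (-0.79 on ABI), where the HOXD median on AFFX went from 0.25 to 0.02.

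**Figure D2:**
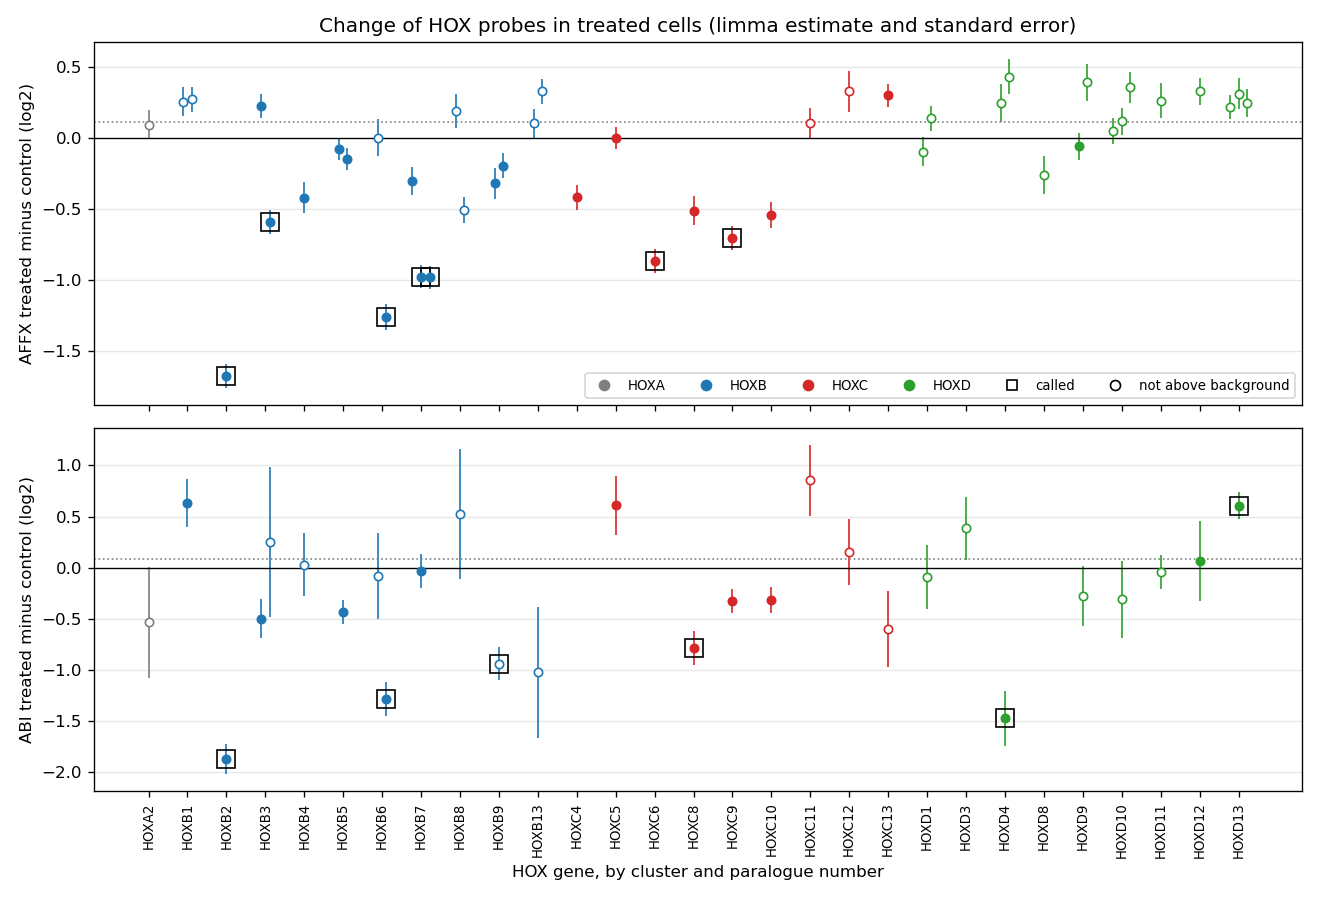
Treated minus control (log2, limma estimate with standard error) of each HOX probe on AFFX (top) and ABI (bottom), ordered by cluster and paralogue number, where open points are not above background, squares mark calls, and the dotted line is the median of all single-gene probes (0.11 and 0.08). HOXB2 and HOXB6 are low in both panels, HOXD probes on AFFX lie mostly above 0, and the error bars on ABI are wider.

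HOXB2, a group 2 gene known from the patterning of the hindbrain, had the largest fall of any HOX probe on either platform. Its AFFX probe set 205453_at read 9.13, 8.99 and 9.05 in control arrays and 7.28, 7.42 and 7.45 in treated arrays. Its ABI probe read 4.58, 4.50 and 4.42 against 2.85, 2.49 and 2.55. The groups were far apart on both platforms, with a change of -1.67 (95% interval -1.86 to -1.48, 3.19-fold, limma adjusted p = 1.18e-07) on AFFX and -1.87 (-2.24 to -1.51, 3.66-fold, limma adjusted p = 0.00137) on ABI. HOXB1, its anterior neighbour, was not above background on AFFX, and on ABI, where it was, treated arrays exceeded control arrays by 0.63 (SE 0.24, limma adjusted p = 0.122), which did not pass. Its AFFX probe sets changed by 0.25 (208224_at) and 0.27 (243811_at, limma adjusted p = 0.0278). Only 243811_at passed the test, under the fold limit.

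HOXB6, a central gene of the cluster, was the other gene that fell on both. Probe set 205366_s_at read 8.52, 8.43 and 8.36 in control and 7.23, 7.27 and 7.02 in treated arrays, and ABI probe 218380 read 3.38, 3.17 and 3.18 against 2.18, 1.99 and 1.72. Neither platform showed any overlap, and the changes were -1.26 (2.39-fold, limma adjusted p = 1.84e-06) and -1.28 (2.43-fold, limma adjusted p = 0.00636). Each platform also held a HOXB6 probe below background, 205365_at with a change of 0.00 (SE 0.13) and ABI 113676 with -0.08 (SE 0.42), and neither passed. With the mean of all probes of a gene in place of 1 probe, HOXB6 changed by -0.63 on AFFX, still a call, and by -0.68 on ABI, where the call was lost (limma adjusted p = 0.053).

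HOXB7, which is often raised in carcinomas, fell on AFFX only. Probe set 204779_s_at read 8.99, 8.94 and 8.94 in control and 8.0, 8.01 and 7.94 in treated arrays (change -0.97, limma adjusted p = 3.22e-06), and 216973_s_at went from 8.72, 8.57 and 8.70 to 7.68, 7.72 and 7.65 (-0.98). The third AFFX probe set of the gene, 204778_x_at, differed by only -0.30 (8.02, 8.07 and 7.75 against 7.68, 7.67 and 7.60, limma adjusted p = 0.0338), under the fold limit. ABI read 2.78, 2.38 and 2.46 in control and 2.38, 2.49 and 2.66 in treated arrays, which overlap (change -0.03, SE 0.16, limma adjusted p = 0.918). The ABI change exceeded the AFFX change of 204779_s_at by 0.94 (SE 0.17, limma adjusted p of the difference = 0.00481).

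HOXB3 and HOXB5 gave smaller values. For HOXB3, AFFX probe set 228904_at read 9.01, 8.91 and 8.82 against 8.33, 8.35 and 8.28 in treated arrays, a change of -0.59 (1.51-fold, limma adjusted p = 0.000306) that stands just over the fold limit and dropped under it, to -0.54 and -0.57, without AFFX control replicate 1 or treated replicate 3. Its other probe set, 208414_s_at, lay on the opposite side (7.46, 7.41 and 7.54 against 7.69, 7.62 and 7.78, change 0.22, limma adjusted p = 0.0567), and ABI gave 2.73, 2.17 and 2.21 against 1.87, 1.97 and 1.78 (-0.50, limma adjusted p = 0.131). The 2 HOXB3 probe sets thus part in direction, and only 1 of them passed. HOXB5 read 8.11, 8.02 and 8.01 against 7.88, 7.94 and 7.88 on AFFX (205601_s_at, -0.15, limma adjusted p = 0.162) and 4.03, 4.02 and 3.98 against 3.46, 3.59 and 3.66 on ABI (-0.44, limma adjusted p = 0.0553). Treated HOXB5 values were below all control values on both platforms, but neither change passed the test.

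HOXB9, the posterior neighbour in the cluster, was called on ABI alone, from 0.26, 0.28 and 0.64 to -0.40, -0.60 and -0.64 (-0.94, limma adjusted p = 0.016), where its control mean was not above background and the call was lost without treated replicate 2 or 3 (adjusted p of 0.0586 and 0.0572). Its AFFX probe sets were above background and read 6.77, 6.80 and 6.64 against 6.33, 6.65 and 6.28 (216417_x_at, -0.32) and 9.15, 8.94 and 9.15 against 8.85, 8.96 and 8.85 (226461_at, -0.19). Both AFFX pairs of groups overlap. Within the cluster, then, the AFFX changes of the probe kept for each gene ran -1.67 (HOXB2), -0.59 (HOXB3), -0.42 (HOXB4), -0.15 (HOXB5), -1.26 (HOXB6), -0.97 (HOXB7), -0.50 (HOXB8, not above background) and -0.32 (HOXB9), while HOXB1 (0.27) and HOXB13 (0.33), neither above background, lay above 0. On these AFFX probes alone, the changes shrank from HOXB2 to HOXB5 and again from HOXB6 to HOXB9. The kept ABI probes did not follow this order. They gave -1.87 (HOXB2), -0.50 (HOXB3), 0.03 (HOXB4) and -0.44 (HOXB5). For the next genes they gave -1.28 (HOXB6), -0.03 (HOXB7), 0.52 (HOXB8) and -0.94 (HOXB9). Other AFFX probe sets of HOXB3 (0.22) and HOXB8 (0.19) lay above 0.

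Among the HOXC genes 2 of 9 fell on AFFX and 1 of 7 on ABI, where 14.2% and 14.8% of all genes were called lower. The median change of the HOXC probes was -0.42 on AFFX and -0.32 on ABI. It was -0.19 and -0.26 over the HOXB probes, and 0.11 and 0.08 over all single-gene probes. HOXC6, with a single probe set on AFFX and no single-gene probe on ABI, fell from 11.74, 11.69 and 11.58 to 10.78, 10.88 and 10.75 (-0.87, 1.82-fold, limma adjusted p = 1.61e-05). HOXC9 fell on AFFX, from 9.14, 8.99 and 9.12 to 8.41, 8.43 and 8.30 (-0.71, limma adjusted p = 8.38e-05), while on ABI it read 5.33, 5.36 and 5.24 against 4.92, 5.06 and 4.97 (-0.32, limma adjusted p = 0.115). All treated arrays of both genes lay below all control arrays, and for HOXC9 the platforms' changes did not differ beyond their error (0.38, limma adjusted p = 0.183).

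HOXC8, expressed along the trunk of the embryo, fell on ABI from 2.83, 2.66 and 2.59 to 2.17, 1.82 and 1.74 (-0.78, limma adjusted p = 0.0279). On AFFX it went from 7.35, 7.56 and 7.47 to 7.0, 6.76 and 7.10 (-0.51, limma adjusted p = 0.00317), which passed the test but not the fold limit. The ABI call was lost, with an adjusted p of up to 0.0879, when any ABI array other than treated replicate 1 was left out. HOXC10 behaved likewise on AFFX, from 10.10, 9.88 and 9.98 to 9.41, 9.55 and 9.38 (-0.54, 1.45-fold, limma adjusted p = 0.000974), and gave 5.33, 5.15 and 5.13 against 4.86, 4.97 and 4.83 on ABI (-0.32, limma adjusted p = 0.139). HOXC4, measured on AFFX alone, passed the test with -0.42 (1.34-fold, limma adjusted p = 0.00407). HOXC5 read 6.31, 6.39 and 6.39 against 6.35, 6.40 and 6.33 on AFFX (0.00, 95% interval -0.17 to 0.17) and 1.51, 0.43 and 0.77 against 1.52, 1.61 and 1.40 on ABI (0.61, limma adjusted p = 0.205). HOXC5 overlapped between groups on both platforms. Its control means, 6.36 on AFFX and 0.90 on ABI, stood just over the background levels of 6.17 and 0.80. The narrow AFFX interval holds technical spread at that level only, and does not limit how far the transcript may have changed. HOXC13 was the 1 HOX probe set above background on AFFX that passed the test upwards, by 0.30, and it was under the fold limit.

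**Figure D3:**
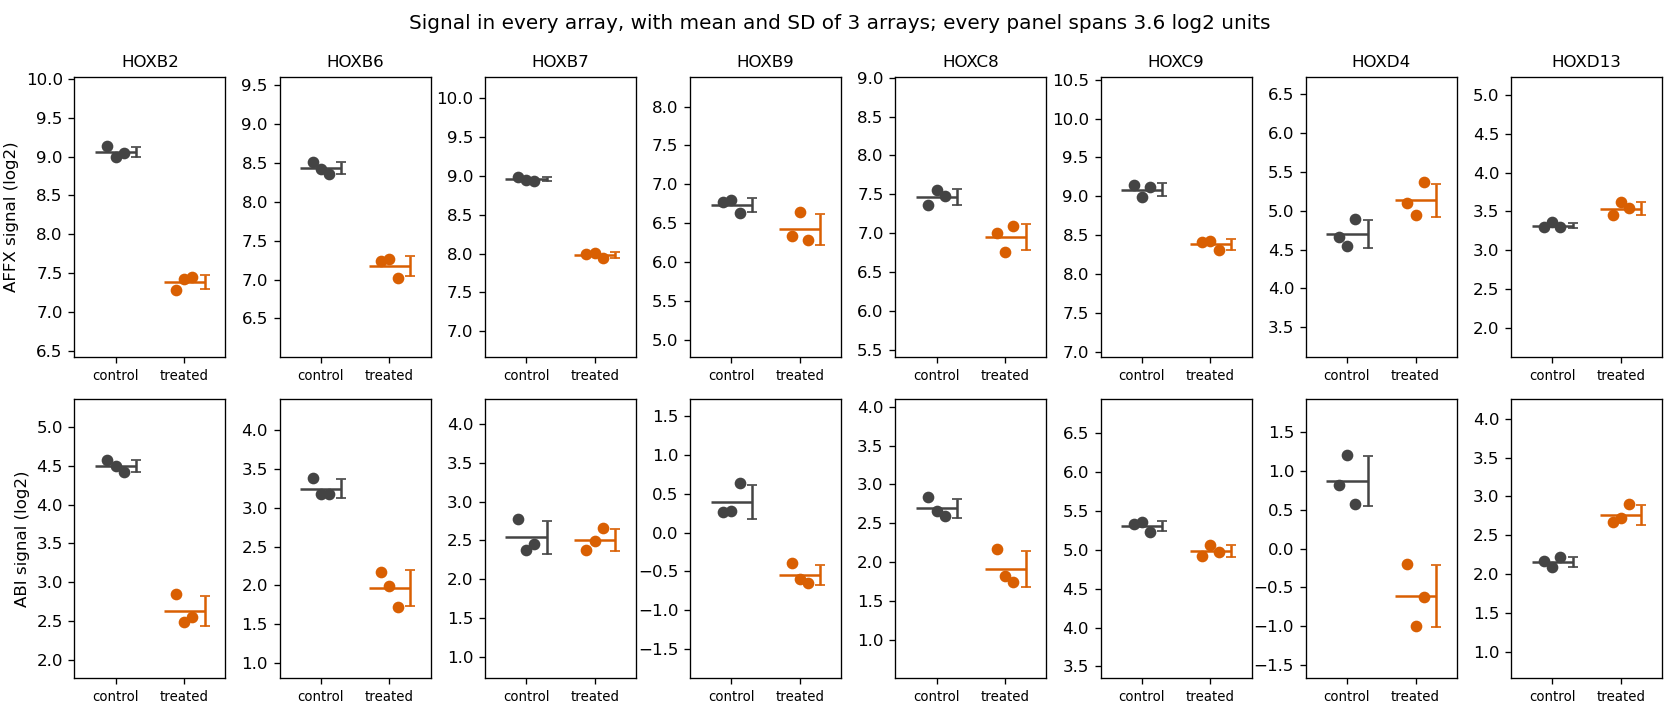
Log2 signal in each of the 3 control (grey) and 3 treated (orange) arrays on AFFX (top) and ABI (bottom), with mean and SD, for 8 HOX genes chosen after their values were seen, 1 probe per gene; every panel spans the same number of log2 units. HOXB2 and HOXB6 separate on both platforms, HOXB7 on AFFX only, and HOXD4 falls on ABI while its AFFX probe set, not above background, lies higher in treated arrays.

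In the HOXD cluster, HOXD4 and HOXD13 were called, both on ABI alone, and of the HOXD genes on both platforms only HOXD4 changed differently between them. HOXD4 fell on ABI from 0.82, 1.21 and 0.58 to -0.20, -1.0 and -0.62 (-1.47, 2.78-fold, limma adjusted p = 0.0186), from a control mean of 0.87 that stood just over the background level of 0.80. Its AFFX probe sets were not above background and read 4.66, 4.55 and 4.90 against 5.10, 4.94 and 5.36 (205522_at, 0.43) and 4.10, 4.17 and 4.52 against 4.28, 4.58 and 4.66 (1552337_s_at, 0.25). The ABI change was thus lower than that of 205522_at by -1.91 (SE 0.36, limma adjusted p of the difference = 0.00698). The ABI call was lost without control replicate 1 or 2 or treated replicate 2 or 3, with adjusted p of 0.0519 to 0.0623.

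HOXD13, the gene of digits and the urogenital tract, was the only HOX gene called higher, on ABI. It read 2.16, 2.09 and 2.21 in control and 2.67, 2.72 and 2.90 in treated arrays, with no overlap (0.61, 1.52-fold, limma adjusted p = 0.0272), and it lost the call whichever ABI array was left out (adjusted p of 0.0571 to 0.0947). Its 3 AFFX probe sets were not above background. They read 3.29, 3.36 and 3.30 against 3.45, 3.61 and 3.54 (207397_s_at), 3.56, 3.47 and 3.80 against 3.87, 3.82 and 4.07 (207398_at) and 5.41, 5.54 and 5.62 against 5.73, 5.66 and 5.91 (236681_at), with changes of 0.22, 0.31 and 0.25. Those changes are small, all upwards, and only that of 207398_at passed the test.

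The remaining HOXD probes changed by between -0.26 and 0.39 on AFFX and none was called on either platform. Over the 24 HOX probe sets not above background on AFFX the median change was 0.23, and 7 of them passed the test upwards, where 22.9% of all single-gene probes not above background did. Over the marker genes that such cells should lack, the median change was also positive, 0.28 for the 17 leukocyte genes measured, 0.28 for 18 erythroid and hepatocyte genes and 0.27 for 16 muscle, photoreceptor and pancreas genes, and the median of all single-gene probes not above background was 0.14. The summed signal of the leukocyte probes lay between 10.03 and 10.09 in control and 10.27 and 10.38 in treated arrays on the log2 scale. Its part in the small positive values of dim HOX probes was not tested. Over the 20 HOX probe sets above background the median was -0.42, beside 0.02 over all single-gene probes above background. Of these 20, 7 were called lower and none higher, where 19.7% and 2.25% of all single-gene probes above background were. On ABI 4 of 13 were called lower (25.1% of all) and 1 higher (7.41%), and of the 15 not above background 1 was called lower (2.24% of all) and none passed the test upwards (4.12%). The level that splits these groups was taken from the control arrays, which also enter the changes, so the split is a description.

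Across the 25 genes on both platforms, the platforms' changes differed for 2, HOXB7 and HOXD4, where they differed for 11.6% of the 16186 shared genes. By region of the cluster, on AFFX 2 of 8 anterior probes (numbers 1 to 3), 4 of 17 central probes (4 to 8) and 1 of 19 posterior probes (9 to 13) were called lower. On ABI the counts were 1 of 7, 3 of 9 and 1 of 12, with 1 posterior probe higher. Of all single-gene probes 10.4% were called lower on AFFX, and on ABI 13.1% were called lower and 5.62% higher. No test was made between regions, and more of the posterior probes are HOXD probes that were not above background.

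Partners and regulators of HOX genes were described from lists, 1 probe per gene. On the gene level 14.2% of all genes on AFFX were called lower and 2.49% higher, and on ABI 14.8% and 6.31%. Of the TALE partners 2 of 8 fell on AFFX and 3 of 6 on ABI, and none rose. MEIS1, a cofactor of HOX proteins, changed by -2.13 on AFFX (4.37-fold, limma adjusted p = 2.15e-08) and -2.53 on ABI (5.78-fold, limma adjusted p = 0.000574), and MEIS2 by -1.23 and -1.28. Both falls of MEIS1 exceed those of every HOX probe on the same platform in size.

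Of the Polycomb genes 8 of 18 fell on AFFX and 8 of 17 on ABI, with none higher. MTF2, which helps bring the H3K27 methyltransferase to chromatin, changed by -2.92 on AFFX and -1.95 on ABI. EED, a core subunit of that enzyme, changed by -1.58 and -1.89, and PHC2, a Polycomb repressive complex 1 subunit, by -0.82 and -1.59. KDM5B, an H3K4 demethylase that the list counts although it is not a Polycomb protein, changed by -1.42 and -1.65. Of the Trithorax-type genes 7 of 15 fell on AFFX and 3 of 14 on ABI, with none higher. KDM6A, which removes H3K27 methylation, changed by -1.74 and -2.45, AFF1, a partner of MLL in leukaemia fusions, by -0.72 and -0.87, and RBBP5, a core subunit of MLL complexes, by -0.67 and -0.69. Genes on both sides of the control of HOX clusters were thus called lower.

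Of the retinoid genes 1 of 13 fell on AFFX, and on ABI 2 of 13 fell and 1 rose. RXRA, a retinoid X receptor, changed by -1.18 and -1.23. Among EVX, CDX and other ParaHox genes, 1 of 10 rose on each platform and none fell. These were PDX1 on AFFX (0.66, not above background) and EVX1, which lies beside the HOXA cluster, on ABI (0.79). Genes next to the clusters that are not HOX genes gave 3 of 26 lower and 1 higher on AFFX and 2 of 26 lower on ABI. SNX11, 2 genes away from the HOXB cluster, fell on both (-0.83 and -1.93). ATF7, near the HOXC cluster, was called in opposite directions, 0.70 on AFFX and -1.23 on ABI, where it was not above background, and is named after its values were seen. The median changes of the flanking list were 0.24 and 0.05, and the fall of HOXB2 and HOXB6 was not shared by most neighbours of the clusters.

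**Figure D4:**
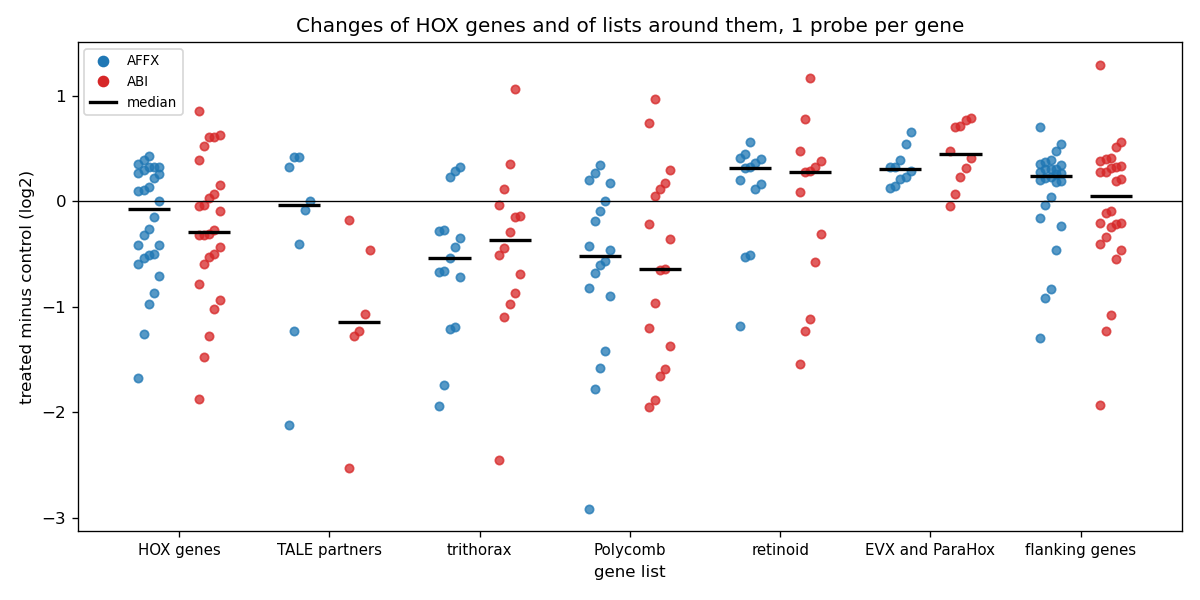
Treated minus control (log2) of each gene, 1 probe per gene, on AFFX (blue) and ABI (red) for the HOX genes and the lists around them, with the median as a bar. The Polycomb and Trithorax medians lie below 0 on both platforms (-0.52 and -0.64, -0.54 and -0.37), and the retinoid, EVX and ParaHox and flanking medians lie above 0.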

How the data were processed

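RNA of A2780 cells was measured on 12 arrays. For AFFX, the values deposited by the authors are log2 signals from RMA, including quantile normalization (version not given in the sources used here). On ABI the authors deposited chemiluminescence intensity values after global median normalization, without detection flags and in a unit not stated in the sources used here, and these were taken as linear and turned to log2. Gene names came from the platform annotation, and promoter sequences from RefSeq (GRCh38.p14). Conditions were compared within a platform by an unpaired limma fit (version 3.58.1, R 4.3.3), and p-values were adjusted by Benjamini-Hochberg across the 54613 AFFX and 33096 ABI probes that are not controls. Where a gene had several probes, that of smallest p in a t-test stood for it, as in the study (equal variance was chosen here), which leans towards larger changes. The difference of the platforms' changes was an interaction in limma over shared genes. On simulated data, where few probes changed, the limma step with the fold limit kept to its nominal rate. It called 91% of 2-fold and 100% of 4-fold changes on AFFX, but only 9% and 47% on ABI. The interaction called unchanged genes more often than the nominal rate, also with separate fits per platform, so its adjusted p-values are probably too small. Members, lists and tests were chosen with earlier results of these data known. Array values are given for HOX genes called on at least 1 platform or above background on both, and list genes are named when called alike on both platforms (up to 4 a list), otherwise on 1. Alternatives were the replicate block, other scalings, log2(value + 1) on ABI, a filter on dim probes, an intensity trend, other thresholds, another choice of probe or the mean of a gene's probes, a t-test, separate fits, and each array left out.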

Additional observations from a re-analysis of the deposited data

Results flagged for a closer look

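The changes of 2 HOX genes differed between the platforms. For HOXB7 the ABI change exceeded the AFFX change by 0.94 on the log2 scale (limma adjusted p = 0.00481, and 0.00943 with separate fits per platform), with AFFX lower in 3 of 3 treated arrays and ABI overlapping. For HOXD4 the ABI change minus the AFFX change was -1.91 (limma adjusted p = 0.00698, and 0.0043 with separate fits), from an AFFX probe set that was not above background. With separate fits the changes differed for 13.7% of all shared genes.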

How the results depend on the processing

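HOXB2 stayed called lower on both platforms under every alternative run, and so did HOXB6 except on ABI with the mean of all probes of a gene (-0.68, limma adjusted p = 0.053). No called HOX change turned its sign. With the replicate block ABI gave 3 HOX probes (3 genes) lower and 0 higher, of which HOXB2 and HOXB6 were kept and HOXB13 was gained. HOXB9, HOXC8, HOXD4 and HOXD13 lost their calls on ABI (limma adjusted p of 0.0752, 0.0625, 0.0797 and 0.0835). AFFX gave 7 lower with the block, and 3 genes differed between platforms. The study describes no pairing of arrays by replicate number. Correlations of same-numbered control and treated arrays were 0.00403 to 0.327 on AFFX and -0.00667 to 0.0717 on ABI. The highest was that of AFFX replicate 3, and whether the numbers mark arrays handled together was not tested. Quantile normalization gave 2 higher calls on ABI (probes and genes), HOXD13 and HOXB1 (0.88, limma adjusted p = 0.0432). It gave 4 genes that differed between platforms, and HOXB3 (-0.42) and HOXC9 (-0.56) went under the fold limit on AFFX. HOXC8 lost its lower call on ABI (-0.52, limma adjusted p = 0.0673). Centring on ribosomal protein probes shifted the median of all probes (AFFX 0.12 to -0.11, ABI 0.16 to -0.44), and gave 12 probes (11 genes) lower on AFFX, 9 (9) lower and 0 higher on ABI, and 7 genes that differed. HOX probes lower by sign then numbered 31 of 44 on AFFX (21 before) and 24 of 28 on ABI (18 before), and HOXD13 on ABI moved from 0.61 to 0.00. With log2(value + 1), ABI gave 0 higher and the platforms differed for 6 genes, and with dim probes left out for 4. HOXB9 went under the fold limit on ABI with log2(value + 1) (-0.46), and HOXD4 moved from -1.47 to -0.77. An intensity trend gave 2 higher on ABI, HOXD13 and HOXB1 (limma adjusted p of HOXB1 = 0.0126), and HOXB9 lost its lower call there (limma adjusted p = 0.0693). Without a fold limit AFFX gave 14 probes (12 genes) lower and 8 (7) higher, and at 2-fold 2 (2) lower, with 3 (3) lower and 0 (0) higher on ABI. The separate fits per platform, added after seeing the data, again gave 2 genes. At the 99th percentile 2 ABI probes were above background. The cause of these shifts was not tested.

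With each array left out in turn, AFFX gave 6 to 8 probes and 5 to 7 genes lower and 0 higher, and ABI gave 2 to 5 probes and genes lower and 0 to 1 higher. HOXD13 was never the higher call, which was HOXC5 without ABI control replicate 1 and HOXC11 without ABI treated replicate 1. The platforms differed for 2 to 3 genes, and 20 AFFX and 11 to 13 ABI probes were above background. Without ABI treated replicate 2 only HOXB2 and HOXB6 kept their lower calls, as without treated replicate 3, where HOXA2 was gained (-1.15). Without control replicate 1 or 2, HOXB9 kept its call too. The larger spread between ABI arrays (median SE of a HOX change 0.29, against 0.09 on AFFX) limits what a missed call on ABI says.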
